A study of Danio rerio with 6 samples.

Results

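The 7 genes described here are egr2b, mafba, hoxb1a, hoxb2a, hoxb3a, hoxb1b and hoxa2b of the zebrafish, a set of hindbrain segment and anterior Hox regulators. They were selected by Ensembl identifier out of 32266 genes listed in the count table. The rule used no expression value, but the choice was made with earlier results of these data known. RNA was sequenced from sorted pax8:DsRed-positive cells of 3 dlx3b/4b morphant samples (dlx3p4_MO) and of 3 wild-type samples (wt), all at the 6 to 9 somite stage. The study names AB as its wild-type line and gives no separate strain for the morphant embryos. The morphant embryos had received antisense morpholinos against dlx3b and dlx4b, homeobox genes of the early ear field, at the one-cell stage. For the wild-type embryos no control injection was described. Effects of Dlx3b/4b depletion and of the injection itself therefore cannot be told apart. All embryos of both groups carried 1 copy of the pax8:DsRed reporter, which marks the otic-epibranchial progenitor domain (OEPD, from which the ear and the epibranchial ganglia arise) together with the nephric anlagen. The sort gated live single DsRed-positive cells and did not separate these cell populations from each other.

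In the vertebrate embryo the hindbrain is transiently divided into segments called rhombomeres, and the OEPD forms beside them. The zinc finger factor Egr2 (Krox20) defines alternating rhombomeres, and Hox proteins of the anterior paralogue groups give the segments their identity. Hox genes are arranged in clusters, in which genes at one end are used in the head and genes at the other end in the trunk and tail. They are expressed in mesoderm and neural crest as well as in the neural tube.

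Outside the hoxba cluster there are 4 of the genes. By the coordinates of the deposited table, egr2b (ENSDARG00000042826) lies on chromosome 12 from 8445995 to 8466435, reverse strand, with 3 exons. The gene mafba (ENSDARG00000017121) is a single exon of 3162 bp on chromosome 23, from 3462556 to 3465717, reverse strand. The gene hoxb1b (ENSDARG00000054033) occupies positions 27049780 to 27051474 of chromosome 12, forward strand, with 2 exons, in the hoxbb cluster. The 2 exons of hoxa2b (ENSDARG00000023031) span 21120854 to 21123364 of chromosome 16, forward strand, in the hoxab cluster. The remaining members are neighbours in the hoxba cluster of chromosome 3, all on the forward strand. There hoxb3a (ENSDARG00000029263) runs from 23567486 to 23618858, hoxb2a (ENSDARG00000000175) from 23621602 to 23624283 and hoxb1a (ENSDARG00000008174) from 23638350 to 23640594. The annotated hoxb3a locus is long, with a span of 51373 bp for 3977 bp of exon, and it encloses hoxb4a, hoxb5a and hoxb6a. Of its exon sequence, 481 bp (12.1%) are shared with an antisense gene (ENSDARG00000097891), and since the strand setting of the counting is not given, reads of this stretch cannot be assigned with certainty. No other member shares exon bases with another listed gene. The genome build is named as GRCz10 in the submitters' processing notes and as a later assembly in the study's methods, so that the coordinates are those of the table.

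Between 23846555 and 26250129 reads were counted on genes per morphant sample, and between 27373965 and 28480101 per wild-type sample. At these depths 3 counts equal 0.105 to 0.126 CPM, a limit that covers counting error only. CPM are counts scaled to a common library size with TMM factors. The marker genes of the labelled cells were present in every sample, with pax8 at 227 to 415 CPM and pax2a at 523 to 744 CPM. The targeted transcripts were detected in all samples and overlapped between the groups. Dlx3b had 51.2, 78.7 and 179.8 CPM in morphants against 48.0, 144.1 and 30.2 CPM in wild type, and dlx4b had 4.26, 8.47 and 23.9 CPM in morphants against 6.16, 25.2 and 3.84 CPM in wild type. The labels and methods do not say how the morpholinos act, and an RNA level does not report on a block of translation, so that these values are no check of the knockdown. Markers of other tissues were also present, among them the blood and endothelial factors lmo2 (981 to 1480 CPM) and tal1 (578 to 974 CPM). In every sample lmo2 was above pax8 and pax2a, and tal1 was above pax8. As these are bulk samples, fewer cells of a type and less RNA per cell cannot be told apart.

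All 7 genes passed the filter on low counts. The lowest single count was 34 reads, for egr2b in morphant replicate 1. Out of the 7, 1 gene was called at an adjusted p below 0.1, and it was lower in morphants, whereas 10.9% of all 17526 tested genes were called, 4.85% higher and 6.05% lower (edgeR quasi-likelihood test, replicate number as blocking factor, Benjamini-Hochberg adjustment over all tested genes). The 1 gene of 7 is a share of 14.3%, near that over all tested genes. The median log2 fold change (morphant over wild type) of the members was 0.04, and that of all tested genes was −0.01. In 5 of the 7 genes the sample values of the groups overlapped, in 1 every morphant sample was lower and in 1 every morphant sample was higher. Over all tested genes 31.5% did not overlap.

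**Figure D1:**
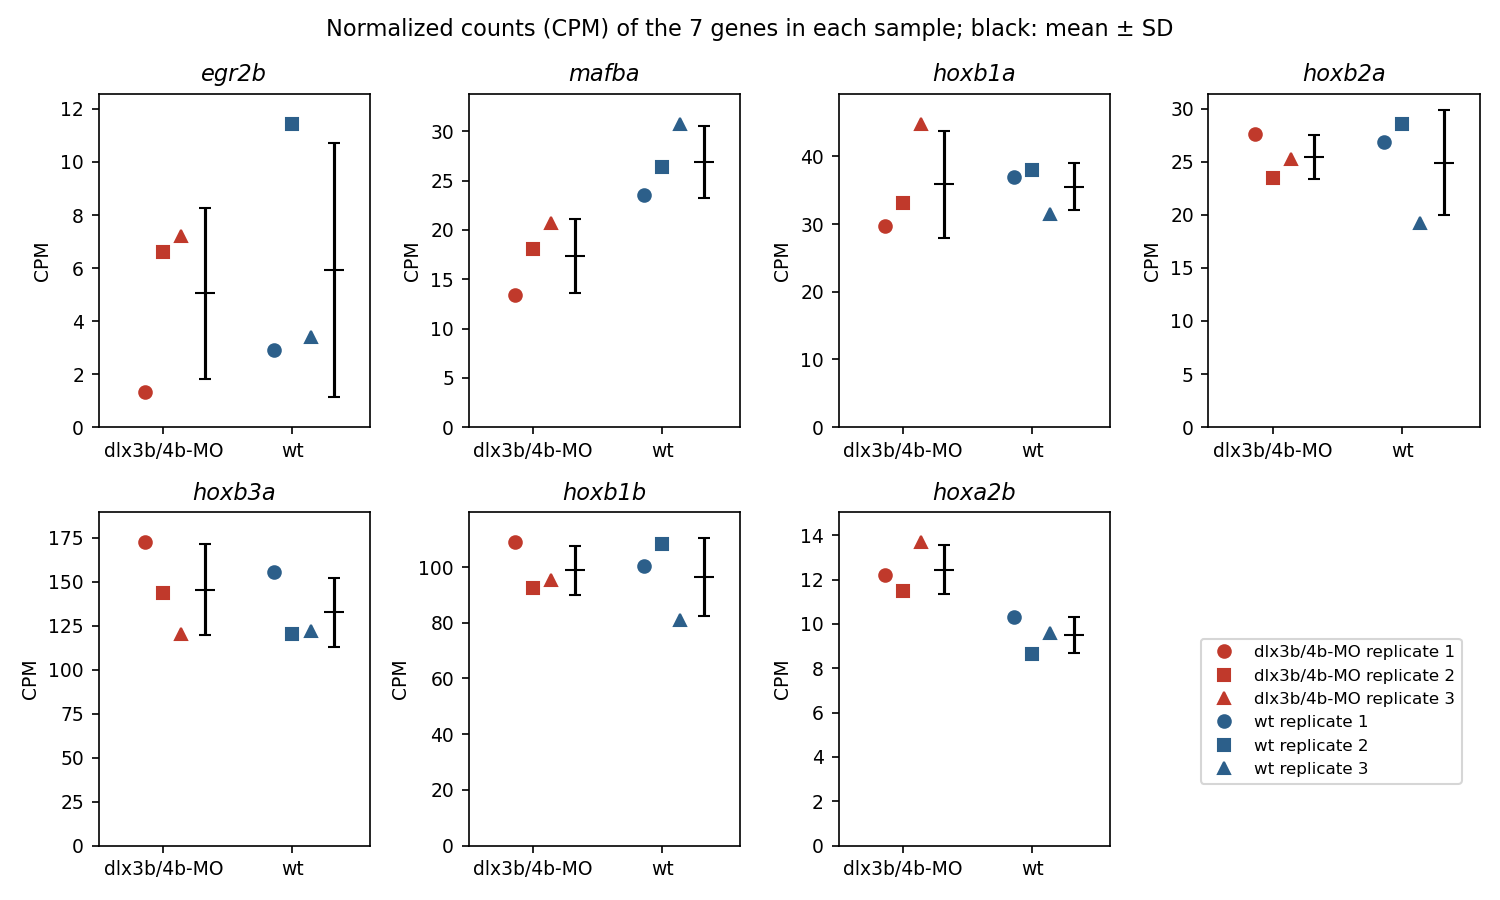
Normalized counts (CPM) of egr2b, mafba, hoxb1a, hoxb2a, hoxb3a, hoxb1b and hoxa2b in 3 dlx3b/4b morphant samples (red, left) and 3 wild-type samples (blue, right), with the marker shape giving the replicate number and black bars the mean ± SD. The groups are separate for mafba (lower in every morphant sample) and hoxa2b (higher in every morphant sample), and the egr2b values scatter widely within both groups.

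The segment gene mafba fell in morphants. It had 342, 479 and 491 counts in morphant replicates 1, 2 and 3, which equal 13.4, 18.0 and 20.7 CPM. In wild type it had 660, 706 and 896 counts, or 23.5, 26.4 and 30.8 CPM. The highest morphant sample was below the lowest wild-type sample, an order that 16.4% of all tested genes had. Morphant replicate 1 was the lowest of all 6 for mafba. The means were 17.4 ± 3.73 CPM in morphants and 26.9 ± 3.65 CPM in wild type (SD, n = 3 each), a log2 fold change of −0.64 ± 0.14 (SE), or 0.640 times the wild-type level with a 95% interval of 0.517 to 0.793. The adjusted p was 0.0317 with edgeR's quasi-likelihood test. It was 0.0586 without the replicate block, where 7.52% of all tested genes were called lower. The call was lost without replicate 1 of either group or of both, where the log2 fold change was −0.56 in all 3 fits. The edgeR adjusted p ranged from 0.325 to 0.338. In these 3 fits 185 to 244 genes were called over the whole table, against 1911 with all samples, so that the loss was not particular to mafba. With the block, the comparison in all 3 rests on replicates 2 and 3, and their likeness is no separate support.

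The 4 blood and endothelial markers measured, tal1, lmo2, gata1a and spi1b, moved in the same direction as mafba. Fli1a and etv2, also on this list, were not matched to identifiers and were not read. The summed level of the 4 was 1848, 1810 and 1742 CPM in morphants against 2529, 2187 and 2874 CPM in wild type. Lmo2 and tal1 made up most of this sum in every sample. The order of every morphant sample below every wild-type sample, which 16.4% of all tested genes had, held for each of the 4 markers. Of these, the erythroid factor gata1a (log2 fold change −1.09 ± 0.14, SE), the myeloid factor spi1b (−1.44 ± 0.22, SE) and lmo2 (−0.41 ± 0.11, SE) were called lower, with edgeR adjusted p of 0.00542, 0.0107 and 0.0580, while tal1 (−0.38 ± 0.13, SE) was not called. Among all tested genes 6.05% were called lower and 4.85% higher. Spi1b lost its call without replicate 1 of both groups, and lmo2 lost its call in 5 of the 9 fits that left out samples. Their part in the mafba result was not tested. Of the 8 nephric markers, cdh17 and hnf1bb were called lower and osr1 higher, and the hnf1bb call was lost without replicate 1 of either group or of both (edgeR adjusted p up to 0.273). Their summed level was 2655, 2184 and 2108 CPM in morphants and 2816, 2649 and 2664 CPM in wild type, with an overlap between morphant replicate 1 and wild-type replicate 2, and its part in the mafba result was not tested either.

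For egr2b the difference between groups was smaller than the spread within them. It had 34, 175 and 171 counts (1.33, 6.59 and 7.22 CPM) in morphant replicates 1, 2 and 3 and 82, 306 and 99 counts (2.92, 11.4 and 3.40 CPM) in wild-type replicates. Morphant replicate 1 was the lowest and wild-type replicate 2 the highest, and morphant replicates 2 and 3 lay above wild-type replicates 1 and 3, so that the groups overlapped. The highest sample of a group was 5.44 times its lowest in morphants and 3.92 times in wild type. The means were 5.05 ± 3.24 CPM in morphants and 5.92 ± 4.79 CPM in wild type (SD, n = 3 each). The log2 fold change was −0.26 ± 0.40 (SE, 95% interval −1.17 to 0.65), and the edgeR adjusted p was 0.754. This interval spans a fall to 0.444 times and a rise to 1.57 times the wild-type level, so that neither direction was settled at this spread. It holds for the fit with the replicate block. Without the block the SE was larger, 0.63 in edgeR (log2 fold change −0.23) and 0.89 in DESeq2 (−0.21). The egr2b log2 fold change depended on replicate 3. Without replicate 3 of either group or of both, egr2b was called lower, with log2 fold changes of −0.94 to −0.91 and edgeR adjusted p of 0.0278 to 0.0393. The number of genes called over the whole table varied from 185 to 4144 among the 9 fits that left out samples, and this call is to be read against that range. Without replicate 1 or replicate 2 the sign was positive, with log2 fold changes of 0.06 to 0.12 and adjusted p of up to 0.972.

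The egr2b values varied across samples together with markers of the neural plate, and some OEPD markers, but not all, had a similar order. Summed over 14 neural markers, among them the SoxB1 factors sox2, sox3 and sox19a, the level was 80.0, 202.3 and 234.9 CPM in morphants and 144.3, 266.0 and 132.9 CPM in wild type. Morphant replicate 1 was the lowest sample for 13 of the 14 markers as well as for egr2b, and wild-type replicate 2 had the highest sum and the highest egr2b level. By single markers, wild-type replicate 2 and morphant replicate 3 were each the highest for 6, and wild-type replicate 2 was the lowest for 1. As a library, wild-type replicate 2 had 4.63% mitochondrial counts against 2.02 to 3.09% in the other samples. It also had the fewest genes with at least 1 count, 21368. The part of this library difference in its values was not tested. In morphants 3 of the neural markers were called lower, sox1a (log2 fold change −1.14 ± 0.26, SE), sox1b (−0.96 ± 0.28, SE) and her4.1 (−1.36 ± 0.37, SE), a Notch target, with edgeR adjusted p of 0.0405, 0.0791 and 0.0664. These calls were lost in 5 of the 9 fits that left out samples for sox1a and in 6 each for sox1b and her4.1, and sox1b had an adjusted p of 0.236 without the replicate block. In DESeq2 without the block, the adjusted p was 0.133 for sox1b and 0.109 for her4.1. The other 11 neural markers were not called. The 3 calls are 21.4% of the 14 neural markers, and 6.05% of all tested genes were called lower. For the 9 OEPD markers, morphant replicate 1 was the lowest sample for 2 and the highest for 2, pax8 (415 CPM) and spry4 (159 CPM). Pax8 and pax2a are also on the nephric list, and sox10 is also on the neural crest list. Of the 8 nephric markers, 4 were highest in morphant replicate 1, pax8 among them, so that pax8 does not report on OEPD cells alone. Wild-type replicate 2 was the highest for 5. Foxi1 was lowest in morphant replicate 1 (4.49 CPM), highest in morphant replicate 3 (26.3 CPM) and next in wild-type replicate 2. Dlx3b and dlx4b were high in morphant replicate 3 and wild-type replicate 2, but lowest in wild-type replicate 3 (30.2 and 3.84 CPM). The part of neural or of OEPD cells in the egr2b values was not tested.

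**Figure D2:**
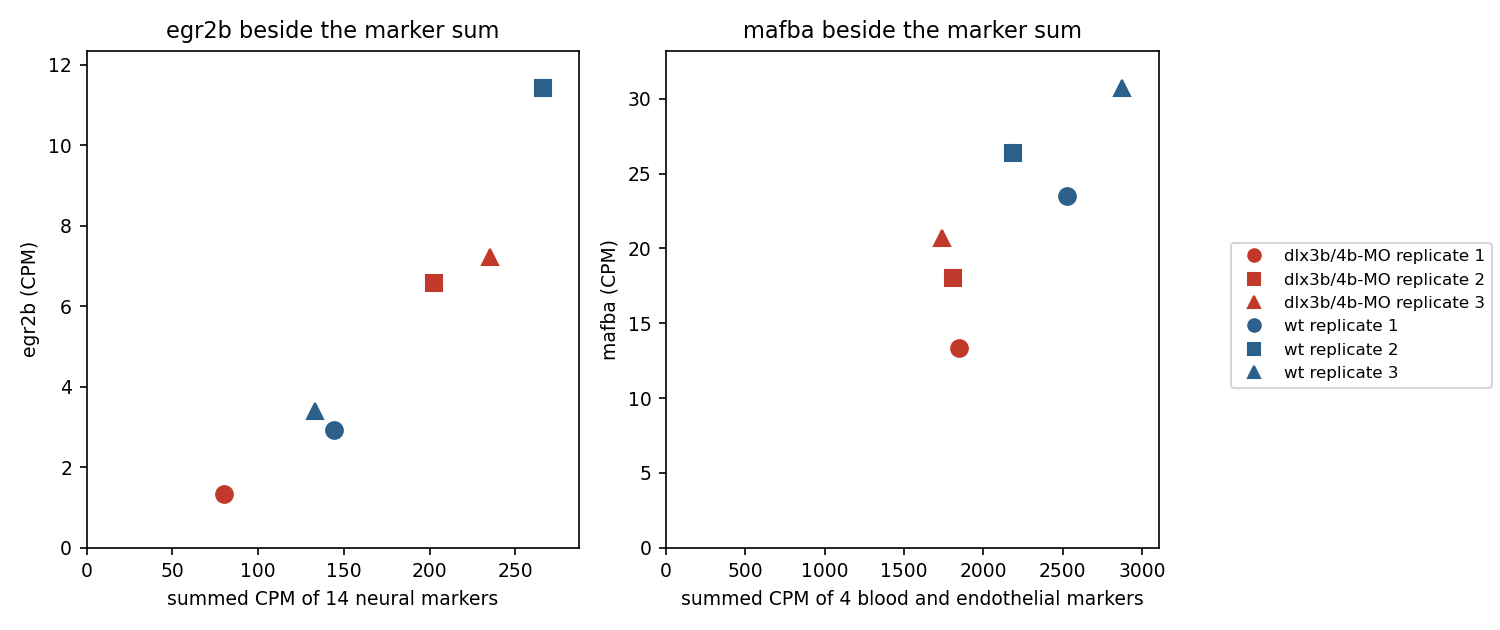
Left, egr2b level (CPM) against the summed level of 14 neural markers (CPM). Right, mafba level (CPM) against the summed level of 4 blood and endothelial markers (tal1, lmo2, gata1a and spi1b, CPM). Each point is 1 sample (red, dlx3b/4b morphant, blue, wild type, shapes give the replicate number). In the left plot the groups interleave along the rising points, with morphant replicate 1 lowest and wild-type replicate 2 highest. In the right plot the 3 morphant samples are below the 3 wild-type samples on both axes.

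The Hox members of paralogue group 1 did not differ beyond their spread. In zebrafish hoxb1b is used early, downstream of retinoic acid, and hoxb1a gives the fourth rhombomere its identity. Hoxb1a had 759, 879 and 1061 counts (29.6, 33.1 and 44.8 CPM) in morphants and 1038, 1018 and 919 counts (37.0, 38.1 and 31.5 CPM) in wild type. Its highest and its lowest values were both in morphants, in replicates 3 and 1. The means were 35.9 ± 7.94 CPM in morphants and 35.5 ± 3.49 CPM in wild type (SD, n = 3 each), and the log2 fold change was 0.00 ± 0.17 (SE, 95% interval −0.38 to 0.37, edgeR adjusted p 0.989). Hoxb1b had 2787, 2453 and 2260 counts (108.9, 92.4 and 95.4 CPM) in morphants and 2816, 2893 and 2361 counts (100.3, 108.1 and 81.0 CPM) in wild type. Its highest value was in morphant replicate 1 and its lowest in wild-type replicate 3, while morphant replicates 2 and 3 lay below wild-type replicates 1 and 2, so that the groups overlapped. Its means were 98.9 ± 8.76 CPM in morphants and 96.5 ± 14.0 CPM in wild type (SD, n = 3 each), with a log2 fold change of 0.04 ± 0.12 (SE, 95% interval −0.22 to 0.31, edgeR adjusted p 0.869).

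The paralogue group 2 members act in the anterior rhombomeres, and Hoxa2 is known to specify the skeleton of the second pharyngeal arch from neural crest. Hoxb2a had 706, 623 and 597 counts (27.6, 23.5 and 25.2 CPM) in morphants and 755, 764 and 561 counts (26.9, 28.6 and 19.3 CPM) in wild type. The morphant samples lay within the range of the wild-type samples. The means were 25.4 ± 2.06 CPM in morphants and 24.9 ± 4.96 CPM in wild type (SD, n = 3 each), with a log2 fold change of 0.05 ± 0.15 (SE, 95% interval −0.30 to 0.40, edgeR adjusted p 0.894).

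In contrast, hoxa2b had 312, 305 and 324 counts (12.2, 11.5 and 13.7 CPM) in morphants and 289, 231 and 279 counts (10.3, 8.63 and 9.58 CPM) in wild type. Every morphant sample was above every wild-type sample, yet over all tested genes 15.1% had this order. The means were 12.5 ± 1.12 CPM in morphants and 9.50 ± 0.832 CPM in wild type (SD, n = 3 each). The log2 fold change of 0.39 ± 0.17 (SE) had a 95% interval of 0.00 to 0.78, and with an unadjusted p of 0.0484 and an adjusted p of 0.217 in the edgeR test it was not called. Over the other settings with all samples its adjusted p ranged from 0.121 to 0.287, and the sign stayed positive. Whether its difference is unlike that of its paralogue hoxb2a was not tested. On the scale per exon length, hoxb2a stood at 2.36, 2.13 and 1.93 times hoxa2b in morphants and at 2.73, 3.46 and 2.10 times in wild type, and these ratios overlapped.

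Hoxb3a, which acts in the posterior hindbrain, had the most reads of the set, with 4411, 3809 and 2852 counts (172.3, 143.5 and 120.4 CPM) in morphants and 4358, 3221 and 3557 counts (155.2, 120.4 and 122.1 CPM) in wild type. Replicate 1 was the highest sample in both groups, and the other values interleaved. The means were 145.4 ± 26.0 CPM in morphants and 132.6 ± 19.6 CPM in wild type (SD, n = 3 each), with a log2 fold change of 0.13 ± 0.10 (SE, 95% interval −0.10 to 0.35, edgeR adjusted p 0.490). Among the uncalled members this was the narrowest interval in the fit with the replicate block. It leaves room for a rise to 1.28 times and a fall to 0.935 times the wild-type level. Without the block the edgeR SE was 0.142 for hoxb3a and 0.119 for hoxb1b.

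**Figure D3:**
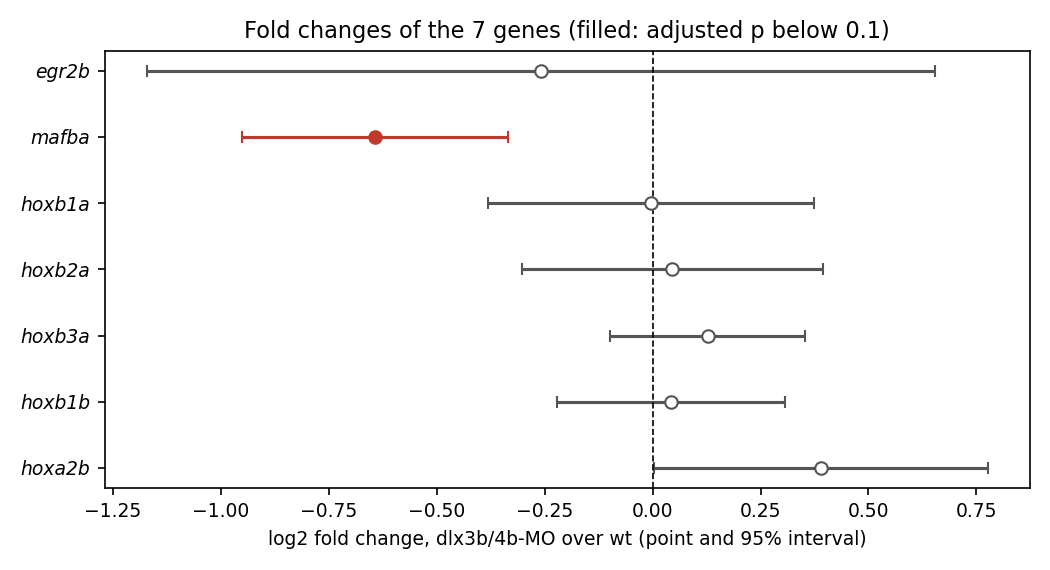
Log2 fold change (dlx3b/4b morphant over wild type, horizontal axis) of the 7 genes with its 95% interval from the edgeR quasi-likelihood fit, filled where the adjusted p was below 0.1. The interval of mafba, −0.95 to −0.33, lies wholly below 0, that of egr2b, −1.17 to 0.65, is the widest, and the intervals of hoxb1a, hoxb2a, hoxb3a and hoxb1b include 0.

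To set the genes beside each other, the CPM were divided by the exon length in kb, which gives RPKM. The order of the levels was hoxb1b, hoxb3a, hoxb1a, hoxb2a, mafba, hoxa2b and egr2b in wild type. Hoxb1b had a mean of 61.6 RPKM in morphants and 60.1 RPKM in wild type (50.5 to 67.8 over the 6 samples), and hoxb3a had 36.6 RPKM in morphants and 33.3 RPKM in wild type (30.3 to 43.3). Hoxb1a followed with 23.8 RPKM in morphants and 23.6 RPKM in wild type (19.7 to 29.7), and then hoxb2a with 13.9 RPKM in morphants and 13.6 RPKM in wild type (10.5 to 15.6). The ranges of these 4 Hox members did not overlap over the 6 samples. Mafba had 5.50 RPKM in morphants and 8.50 RPKM in wild type (4.22 to 9.73), and hoxa2b had 6.51 RPKM in morphants and 4.96 RPKM in wild type (4.51 to 7.15). These ranges overlapped, and the order of mafba and hoxa2b was the opposite in the group means, with hoxa2b above mafba in morphants. Egr2b was the lowest on average, with 2.31 RPKM in morphants and 2.72 RPKM in wild type (0.609 to 5.25), and it overlapped hoxa2b in range. Hoxb1b stood at 3.45, 2.62 and 2.00 times hoxb1a in morphants and at 2.55, 2.67 and 2.41 times in wild type. The 5 Hox members made up 10.9 ± 1.13% of the summed RPKM of the 45 Hox genes matched in morphants and 11.9 ± 1.57% in wild type (SD, n = 3 each).

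The closest paralogues of the segment genes had few counts, at most 14 in a sample. Egr2a had 1, 1 and 0 counts in morphants against 14, 0 and 4 in wild type, and mafbb had 4, 0 and 0 counts in morphants against 0 in every wild-type sample. Neither passed the filter, and egr2b and mafba had more counts than these paralogues in every sample. In wild-type replicate 1, however, egr2a had 14 counts beside 82 of egr2b.

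Along the hoxba cluster the level did not follow the gene order evenly. Hoxb4a (10.7 RPKM in morphants and 11.8 RPKM in wild type), hoxb5a (21.8 RPKM in morphants and 25.7 RPKM in wild type) and hoxb8a (29.4 RPKM in morphants and 25.7 RPKM in wild type) had lower means than the member hoxb3a, and hoxb13a was not tested, with at most 2 counts in a sample. Hoxb6a had 81.9 RPKM in morphants and 100.2 RPKM in wild type, and hoxb9a had 112.6 RPKM in morphants and 90.7 RPKM in wild type, the highest mean of the cluster in morphants. In this cluster 2 genes rose, hoxb7a with 69.5 RPKM in morphants and 54.5 RPKM in wild type (log2 fold change 0.36 ± 0.10, SE, edgeR adjusted p 0.0826), and hoxb10a with 86.6 RPKM in morphants and 65.7 RPKM in wild type (0.40 ± 0.11, SE, edgeR adjusted p 0.0625). Both calls were lost in 6 of the 9 fits that left out samples, and hoxb7a had an adjusted p of 0.127 without the replicate block.

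**Figure D4:**
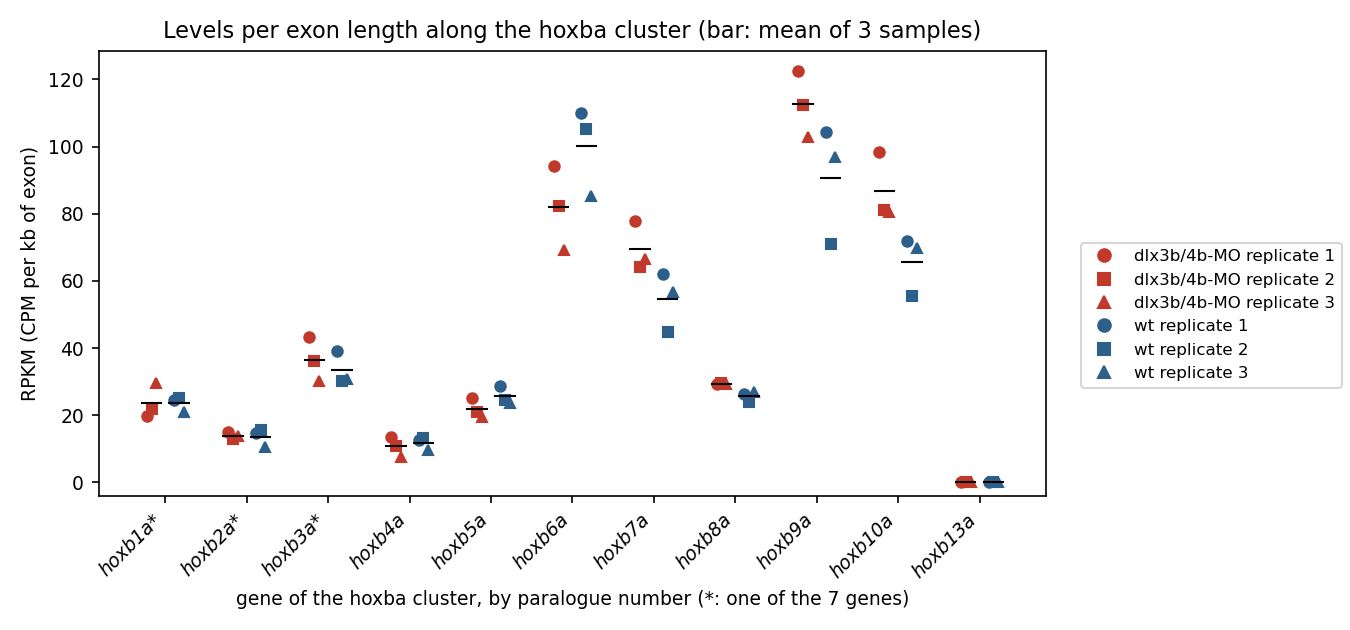
Levels per exon length (RPKM) of the genes of the hoxba cluster on chromosome 3, ordered by paralogue number, in each dlx3b/4b morphant sample (red, left of each pair) and wild-type sample (blue, right), with bars for the group means. The 3 members hoxb1a, hoxb2a and hoxb3a, marked with an asterisk, stay between 10.5 and 43.3 RPKM, below every value of hoxb6a, hoxb7a, hoxb9a and hoxb10a, in the same range as hoxb5a and hoxb8a, and above hoxb13a, which is near 0.

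Among the 43 Hox genes tested, members included, 10 were called (23.3%), 8 higher and 2 lower in morphants, against 10.9% of all tested genes. None of the 5 Hox members was among them, a count to be read against that share, and whether they differ from the other Hox genes was not tested. In the list of other paralogue group 1 to 5 genes, 2 of 12 tested genes were called, both higher. Hoxa3a, a group 3 gene like hoxb3a, had 91.4, 92.1 and 80.1 CPM in morphants against 62.9, 58.5 and 56.1 CPM in wild type (log2 fold change 0.57 ± 0.10, SE, edgeR adjusted p 0.0181). Every morphant sample was above every wild-type sample, an order that 15.1% of all tested genes had. Hoxc3a had 233.0, 193.9 and 175.7 CPM in morphants against 192.7, 135.7 and 146.0 CPM in wild type, with an overlap (0.35 ± 0.10, SE, edgeR adjusted p 0.0765), and its adjusted p was 0.175 without the replicate block. Without replicate 1 of either group or of both, the calls of hoxa3a and hoxc3a were lost, and that of hoxc3a also without replicate 2 and in DESeq2 without the block. Whether the fold changes of hoxa3a and hoxb3a differ was not tested. In the list of paralogue groups 6 to 13, 6 of 26 tested genes were called higher and 2 lower. One of these, hoxc6b, had 142.9, 116.2 and 104.5 CPM in morphants against 105.7, 86.3 and 85.5 CPM in wild type (0.38 ± 0.10, SE, edgeR adjusted p 0.0556), with an overlap, and its call was lost without the replicate block (0.102) and in 6 of the 9 fits that left out samples.

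**Figure D5:**
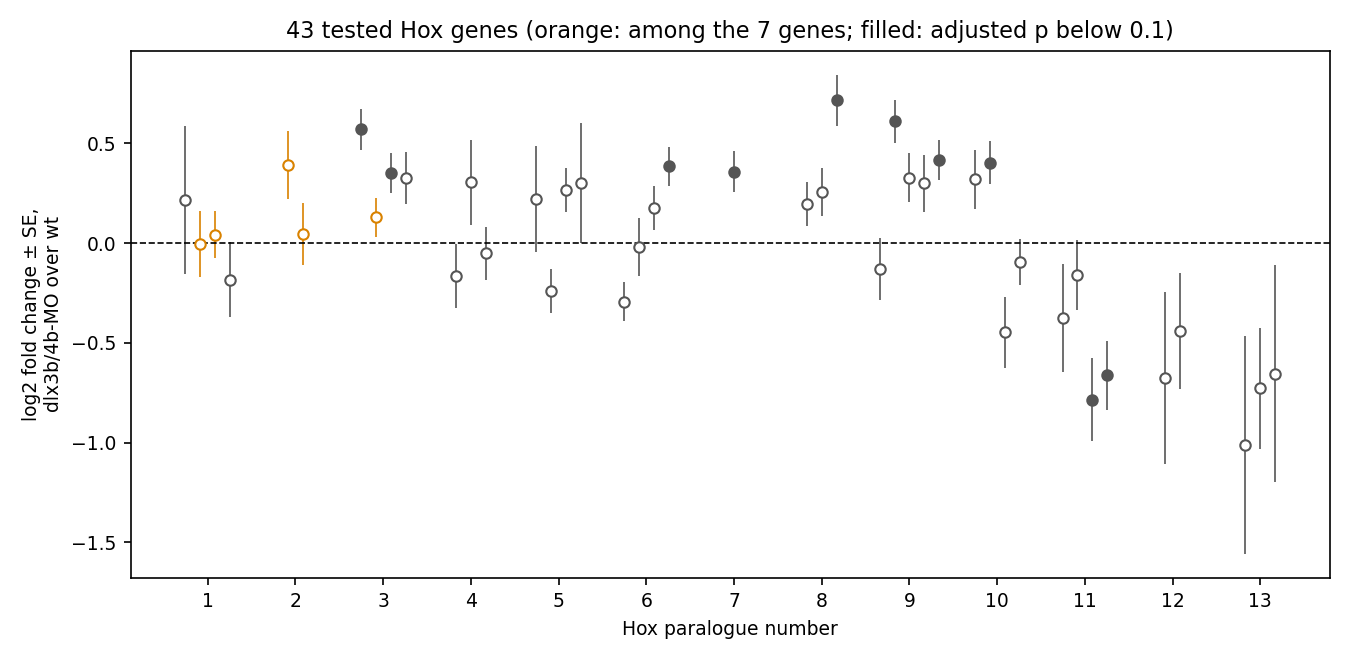
Log2 fold change (dlx3b/4b morphant over wild type) with its SE for the 43 tested Hox genes, placed by paralogue number from head (1) to tail (13). The members, in orange, are all open symbols (adjusted p of 0.1 or more) between 0.00 and 0.39, and filled symbols mark the 10 called genes, 8 above and 2 below 0.

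Other genes of hindbrain segmentation were read from a fixed list of 29, of which 26 were matched to the table and 23 tested. In this list 3 genes (13%) were called, against 10.9% of all tested genes, 2 higher and 1 lower in morphants. The median log2 fold change of the 23 was −0.05. Pbx2, a TALE homeodomain partner of Hox proteins, had 127.1, 118.0 and 105.9 CPM in morphants against 81.6, 61.7 and 78.5 CPM in wild type, with no overlap (log2 fold change 0.67 ± 0.12, SE, edgeR adjusted p 0.0179). Efnb3b, an ephrin ligand of the Eph receptors that keep neighbouring segments apart, had 9.61, 14.4 and 15.0 CPM in morphants against 6.91, 4.97 and 7.24 CPM in wild type, again with no overlap (1.02 ± 0.23, SE, edgeR adjusted p 0.0377). Of all tested genes, 15.1% had every morphant sample above every wild-type sample. The Iroquois factor irx1b had 14.5, 25.6 and 27.8 CPM in morphants against 38.5, 103.7 and 30.4 CPM in wild type. Every morphant sample was lower (−1.19 ± 0.30, SE, edgeR adjusted p 0.0509), an order that 16.4% of all tested genes had. Wild-type replicate 2 stood far above the others. The irx1b call did not hold in DESeq2, with an adjusted p of 0.151 with the block and 0.136 without it. Calls were lost without replicate 1 for pbx2, without replicate 2 for efnb3b, and without either for irx1b, whichever group the left-out sample came from.

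The other partners of Hox proteins on the list were not called. Pbx4, the main Pbx factor of the early zebrafish hindbrain, had 485.6, 447.0 and 471.0 CPM in morphants against 389.0, 380.8 and 393.5 CPM in wild type, and meis3 had 85.7, 98.3 and 117.9 CPM in morphants against 83.6, 72.3 and 71.4 CPM in wild type. Every morphant sample was above every wild-type sample for both, with log2 fold changes of 0.27 ± 0.09 and 0.40 ± 0.14 (SE) and edgeR adjusted p of 0.130 and 0.125. Over all tested genes 15.1% had this order. The groups overlapped for meis1a (log2 fold change −0.05 ± 0.24, SE), meis1b (−0.09 ± 0.13, SE), meis2a (0.01 ± 0.10, SE) and pbx1a (−0.75 ± 0.49, SE). The Eph receptor gene epha4a, whose mouse counterpart is a target of Egr2, had 25.5, 50.1 and 58.6 CPM in morphants against 55.5, 143.4 and 40.8 CPM in wild type (−0.72 ± 0.32, SE, edgeR adjusted p 0.226). Its lowest and highest samples, morphant replicate 1 and wild-type replicate 2, were those of egr2b.

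As a description of the pattern over the 6 samples, Pearson correlations of log2 CPM were computed between each member and 11386 well-counted genes. They rest on 6 points searched over many genes, and the points of both genes share library, depth and group. The gene most like egr2b was the one named SHH in the name table (ENSDARG00000068567, r = 0.995), a signal of the notochord and floor plate, followed by MSI1 (ENSDARG00000010710, r = 0.993), a neural progenitor RNA-binding protein. For mafba they were PDPR (r = 0.995) and RABGGTB (r = 0.990), and for hoxa2b TLE3 (r = 1.00) and TRMT61A (r = 0.998). The highest for hoxb3a was DPH1 (r = 0.995) and for hoxb1a si:dkey-11c5.14 (r = 0.988). Hoxb1b and hoxb2a had sema6ca in common among their 2 most similar genes (r = 0.987 and 0.975), besides her15.2 (r = 0.990) for hoxb1b and ENSDARG00000078281 (r = 0.977) for hoxb2a. Within the set, hoxb1b and hoxb2a, which lie on different chromosomes, were the most alike (r = 0.976), while hoxb3a and egr2b ran most in opposite directions (r = −0.78).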

How the data were processed

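The authors deposited raw counts of reads per gene, without normalization. Per the study's methods, reads were aligned with GSNAP and uniquely aligned reads counted with featureCounts on an Ensembl annotation. The submitters' processing notes name bcl2fastq 2.17.1.14, featureCounts 1.5.2 and GRCz10, whereas the methods name other versions of counter and genome, and labels and methods describe different library kits. The strand setting of the counting is not given in the sources used here. The 92 spike-in features had 0 counts and were left out, as were 14740 genes removed by edgeR's filterByExpr.

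From the deposited counts, 3 morphant and 3 wild-type samples were compared in R 4.3.3 by the quasi-likelihood test of edgeR 4.0.16 after TMM normalization, with Benjamini-Hochberg adjustment and a threshold of 0.1. The model held the replicate number as a block, because the study's methods used a multi-factor model for a clutch effect. The SE is the size of the log2 fold change divided by the square root of F. RPKM is TMM-scaled CPM per kb of exon. Correlations were computed on log2 CPM (prior count 2) over genes with a mean count above 100. The code was tested on simulated counts. Figures were drawn with matplotlib 3.10.9 in Python 3.11.15.

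The members and the gene lists were chosen with earlier results of these data known. All 7 members are named. From the lists (hindbrain segment genes, Hox genes, and neural, OEPD, nephric, paraxial mesoderm, neural crest and blood markers) called genes with a mean count of at least 10 and abundant uncalled ones are named, and for likeness the 2 most correlated genes of each member. Symbols came from a name table that named 26433 of the listed genes, and 109 of 117 list symbols were matched. As alternatives, the block was dropped, DESeq2 1.42.0 was run with it and without it, RLE factors replaced TMM, the filter was dropped or replaced by a minimum of 10 counts per sample, the threshold was set to 0.05, and single samples or both samples of a number were left out.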

Additional observations from a re-analysis of the deposited data

How the results depend on the processing

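The 7 other settings with all samples kept 1 member called, which was mafba in each (log2 fold change −0.64 to −0.61, adjusted p 0.00433 to 0.0586). Over the whole table, 2405 genes were called without the replicate block, 2959 by DESeq2 without the block (1463 higher) and 997 at an adjusted p below 0.05 (416 higher, 581 lower), and 1331 were called higher without a filter. Hoxb1a, near 0, changed sign to 0.013 without the replicate block, 0.012 in DESeq2 with the block, 0.029 in DESeq2 without it, 0.0089 with RLE normalization and 0.0048 without a filter.

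Leaving out samples (9 fits) moved the counts most, from 185 to 4144 genes called, 62 to 2156 higher and 123 to 2037 lower, with 0 to 2 members called. With the block, leaving out 1 sample leaves its partner without a comparison, so that these fits rest on 2 replicate numbers. The log2 fold change ranged from −0.94 to 0.12 for egr2b, −0.69 to −0.56 for mafba, −0.26 to 0.15 for hoxb1a, −0.12 to 0.22 for hoxb2a, 0.07 to 0.23 for hoxb3a, −0.052 to 0.18 for hoxb1b and 0.33 to 0.46 for hoxa2b. The deviations of same-numbered samples from their group means correlated at 0.16, 0.05 and −0.14, so that the numbers did not pair the samples by the data, and the methods do not assign clutches to them. The cause of these shifts was not tested. The lowest sample of egr2b had 34 counts, and the other members had at least 231 counts in every sample.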

Other observations

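The log2 fold changes of the Hox genes are given here by paralogue group. The groups were formed after the values had been seen, and whether they differ was not tested. Over all tested genes 10.9% were called. In paralogue groups 7 to 9, 8 of 9 tested genes had a positive log2 fold change (median 0.33), and 4 were called higher in morphants. These were hoxb7a, hoxc8a (log2 fold change 0.72 ± 0.13, SE), hoxa9b (0.61 ± 0.11, SE) and hoxd9a (0.42 ± 0.10, SE). In paralogue groups 11 to 13, used in the posterior trunk, tail and fins, all 9 tested genes had a negative value (median −0.66), and 2 were called lower, hoxc11a (−0.78 ± 0.21, SE) and hoxd11a (−0.66 ± 0.17, SE). Over all 17526 tested genes 8505 had a positive and 9021 a negative value. Hoxc13a, hoxa13a, hoxc12a and hoxa13b had low mean counts of 18.5, 31.3, 53 and 73.8. Hoxc12a had 124 counts in wild-type replicate 3 against 53 and 35 in wild-type replicates 1 and 2. Hoxc11a had 13.4, 9.94 and 6.17 CPM in morphants against 16.8, 16.7 and 15.2 CPM in wild type, and hoxd11a had 21.7, 17.7 and 11.1 CPM in morphants against 28.6, 24.4 and 24.6 CPM in wild type. The median of the 10 tested genes in groups 1 to 3, members included, was 0.17. In groups 4 to 6, 6 genes had a positive and 5 a negative value (median 0.18, 1 called higher), and in group 10, 2 were positive and 2 negative (median 0.11, 1 called higher).

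Markers of further tissues were measured beside these genes. Among 7 paraxial mesoderm markers, tbx16 was called higher in morphants (log2 fold change 0.58 ± 0.16, SE), and the summed level was 430.9, 391.1 and 364.1 CPM in morphants against 340.9, 256.3 and 340.5 CPM in wild type, with no overlap. Tbx16 was the largest part of this sum in every sample. By single markers the groups overlapped for 5 of the 7. Every morphant sample was higher for the other 2, tbx16 and tbxta, an order that 15.1% of all tested genes had. Tfap2a, a factor of neural crest and of non-neural ectoderm, was called lower (−0.76 ± 0.15, SE), with 57.2, 100.2 and 106.2 CPM in morphants against 134.3, 159.8 and 137.5 CPM in wild type. Of the 5 neural crest markers, 4 were tested and tfap2a was the only 1 called, while foxd3 was listed at 0 in all 6 samples. Sox10 (−1.21 ± 0.51, SE) and crestin (−0.26 ± 0.29, SE) had negative values and snai1b a positive one (0.40 ± 0.26, SE). The groups overlapped for these 3 genes. In the OEPD list spry4, a feedback inhibitor of Fgf signalling, was called higher (0.35 ± 0.10, SE), and the other 8 were not called. These calls used the same edgeR fit, and those of tbx16, tfap2a, spry4, hoxa9b, hoxc8a, hoxd9a, hoxc11a and hoxd11a were lost in the fits without replicate 1. Those of tbx16, spry4, hoxd9a and hoxc11a were also lost without replicate 2, with adjusted p of 0.222, 0.200, 0.167 and 0.130 when both samples of that number were left out, and that of hoxd11a also without the replicate block.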
